A study of Mus musculus with 2 samples.

Results

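The cells described here are macrophages of injured adductor muscle that carried the genes Cd163, Fcna, Cbr2, F13a1, Lyve1 and Cd209f, a combination used to mark tissue-resident macrophages. A barcode (the tag of 1 droplet, read as 1 cell) was a member if it had at least 200 genes, at most 10% mitochondrial UMIs, at least 1 Csf1r UMI and at least 5 UMIs of C1qa, C1qb and C1qc together. A UMI is a unique molecular identifier and stands for 1 captured RNA molecule. Members had no UMI of Pdgfra, Cdh5, Mki67 or Top2a, which mark fibroblasts, endothelium and dividing cells. They also had a UMI in at least 3 of the 6 named genes, called set A, and in more genes of set A than of 3 other sets led by Gpnmb and Spp1, by Cx3cr1 and class II genes, and by Cxcl10 and Rsad2. The rule found 638 members among 23001 kept barcodes. Of these kept barcodes, 6822 passed the Csf1r, C1q and exclusion conditions and are called gated macrophages. The levels of set A chose the members, so they are described below and nothing is read from them.

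Adductor muscle was taken on day 7 after femoral artery ligation, an operation that blocks the main artery of the hind limb. One group was Apoa1bp-/- mice (labelled AIBP-KO) and the other was WT control littermates. Both groups were ligated, so no unoperated muscle enters any comparison. Apoa1bp is the older symbol of Naxe. Its product, AIBP, is an epimerase that repairs damaged NAD(P)H and also a secreted partner of apolipoprotein A-I. The labels name 4 operated mice of each genotype, and each genotype has 1 droplet library. Whether cells of several mice were pooled, how old and of which sex they were, and how the allele was made, is not stated in the labels used here. With 1 library per genotype there is no replicate, no test was run and no p-value is given, and genotype cannot be told apart from any other difference between the libraries. Intervals are exact, at 95%, and hold counting error alone.

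Resident macrophages live in a tissue for long periods, and in muscle they lie in the connective tissue around fibres and vessels. They take up dying cells, haemoglobin complexes and matrix fragments through scavenger receptors and lectins, and they secrete chemokines, complement proteins and growth factors. After ischemic injury, monocytes from the blood enter the muscle and become further macrophages, so both kinds can be present at once. AIBP is known for promoting cholesterol efflux from cells, a process that macrophages run through transporters controlled by the liver X receptors (LXR).

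The WT library had 80954991 UMIs in 14035 barcodes and the knockout library 80444279 UMIs in 9392 barcodes. After filtering, 13837 and 9164 barcodes were kept, with medians of 4461 and 6825 UMIs. Members numbered 595 in WT and 43 in the knockout, and held 2650591 and 262248 UMIs in all, so the knockout values rest on far fewer molecules. Their median depth was 3522 UMIs and 1534 genes in WT and 4850 UMIs and 1768 genes in the knockout. Levels are UMIs of a gene per 1000000 UMIs of the population (CPM). Both libraries shared 43 barcode sequences, but no barcode was a member in both.

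The members had the markers of macrophages. Mrc1, the mannose receptor, had a UMI in 94.3% of WT and 97.7% of knockout members, against 4.62% and 3.41% of fibroblast gate barcodes. Adgre1, which encodes F4/80, had one in 68.6% and 83.7% of members. Cd68, a lysosomal glycoprotein of macrophages, had one in 76.5% and 86.1%. Prox1, which defines lymphatic endothelium, a cell type that also carries Lyve1, stood at 6.79 and 3.81 CPM, and Pecam1, an endothelial adhesion molecule, at 4.15 and 0 CPM. In the fibroblast gate, where set A should be absent, Cd163 was at 1.81 CPM in WT against 0.111 CPM in the knockout.

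RNA of other cells was present in members of both libraries, with Col3a1 at 798 CPM in WT members, above Cd163 at 480 CPM. All 7 fibroblast list genes had a UMI in WT members and summed to 2402 CPM, against 282 CPM in knockout members, where 6 of 7 had one and Col6a3 was at 0. The same list summed to 2973 and 870 CPM in the other gated macrophages. The muscle fibre list summed to 549 CPM in WT and 1235 CPM in knockout members. Of the endothelial list, Pecam1, Kdr, Cldn5, Emcn and Ptprb were at 0 in knockout members, and the mast cell and platelet lists were wholly at 0 there. At least 3 genes of 1 other cell type list were found in 26.2% of WT and 25.6% of knockout members. The part of this RNA in the genotype differences below was not tested, except where values without those cells are given.

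Members made up a smaller share of the macrophages in the knockout library. They were 595 of 4271 gated macrophages in WT, or 13.9% (12.9 to 15%), and 43 of 2551 in the knockout, or 1.69% (1.22 to 2.26%). The ratio of these shares, knockout over WT, was 0.121 (0.0866 to 0.165). Of all kept barcodes, members were 4.30% in WT and 0.469% in the knockout, with a ratio of 0.109 (0.0781 to 0.149). Counting every gated macrophage with at least 3 set A genes, whatever its other sets, gave 792 WT and 93 knockout cells, or 18.5% and 3.65%, and a ratio of 0.197 (0.157 to 0.244). The condition on the other sets thus removed 50 of 93 such knockout cells but 197 of 792 in WT. Gated macrophages as a whole were 30.9% and 27.8% of kept barcodes, so the libraries differed much less in macrophages overall than in members. The Gpnmb/Spp1 cells made up 27.6% of gated macrophages in WT and 29.5% in the knockout. The Cx3cr1/class II cells made up 28.7% and 40.1%, and the Cxcl10/Rsad2 cells 1.80% and 5.02%. Fewer such cells and lower set A expression in cells of the same kind cannot be told apart by this rule.

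The number of set A genes per cell, a value the rule used, is given as a description only. Among gated macrophages, 47.7% of WT and 67.5% of knockout cells had no set A gene. Cells with 1 gene made up 23.1% and 23.3%, and cells with 2 genes 10.6% and 5.57%. Cells with 3 genes were 7.52% and 2.12%, those with 4 were 6.30% and 1.02%, and those with 5 were 3.33% and 0.470%. All 6 genes were found in 60 WT gated macrophages and in 1 of the knockout.

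**Figure D1:**
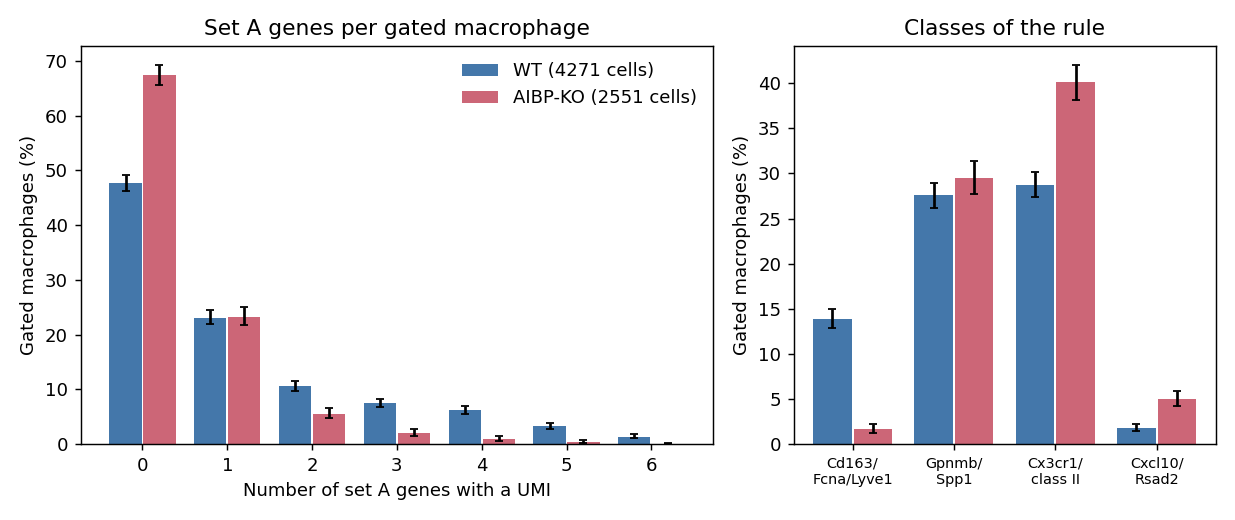
Left, the percent of gated macrophages (y axis) by the number of set A genes with a UMI (x axis), in 4271 WT and 2551 AIBP-KO cells. Right, the percent in each class of the rule; bars are shares and error bars exact 95% counting intervals. WT cells exceed knockout cells from 2 genes upward, and the Cd163/Fcna/Lyve1 class stands at 13.9% against 1.69%.

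Many cells lay close to the limits of the rule. Of the members, 169 in WT and 11 in the knockout had exactly 3 set A genes, and 190 and 20 had only 1 gene more of set A than of the next set. Just outside the rule, 47 WT and 6 knockout gated macrophages had 2 set A genes and more of set A than of any other set. A further 197 WT and 50 knockout cells had at least 3 set A genes but as many or more of another set. Those WT cells had 426 CPM of Gpnmb and 1990 CPM of H2-Aa, against 19.8 and 1128 CPM in members with exactly 3 set A genes. The exclusion of Pdgfra left out 76 WT and 2 knockout barcodes with at least 3 set A genes, that of Cdh5 20 and 2, and the Csf1r condition 62 and 3. Where cells with Mki67 or Top2a were let in, 97 of 692 WT (14.0%, 11.5 to 16.8%) and 5 of 48 knockout cells (10.4%, 3.47 to 22.7%) held a UMI of these cycling genes. Among the other gated macrophages, treated in the same way, the shares were 13.7% and 16.2%.

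The 6 genes of set A were not all carried by the same cells. F13a1, the A subunit of coagulation factor XIII, had a UMI in 97.3% of WT and 100% of knockout members, and stood at 1331 and 1235 CPM. Its level in single members ran from 0 through a median of 1385 to 7823 CPM in WT, and from 316 through 1270 to 3463 CPM in the knockout. Cbr2, a carbonyl reductase, had a UMI in 91.4% and 97.7% of members. Its levels were 751 and 782 CPM. Fcna, a ficolin that starts complement activation, was found in 78.2% and 67.4%, at 663 and 400 CPM. Lyve1, a hyaluronan receptor, was found in 63.0% and 65.1%, at 421 and 313 CPM. Cd163, the receptor for haemoglobin bound to haptoglobin, was found in 56.6% and 51.2%, at 480 and 271 CPM. Cd209f, a lectin related to DC-SIGN, was found in 28.2% and 23.3%, at 333 and 217 CPM. F13a1 and Cbr2 were thus near universal among members and Cd209f was in a minority, in both libraries.

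The levels of set A genes outside the members follow from the same values and are likewise a description. Among gated macrophages that were not members, Cd163 was at 19.7 CPM in WT against 4.94 CPM in the knockout, and Lyve1 at 11.5 and 1.68 CPM. F13a1 was at 156 and 65.5 CPM in them. With every cell thinned to 2000 UMIs and shallower cells left out, 2.99% of these WT cells and 1.00% of these knockout cells had a Cd163 UMI (5.66% and 1.79% unthinned), against 0.479% and 0.0682% of the fibroblast gate (1.11% and 0.126% unthinned). Thinning left out 496 WT and 212 knockout cells of the other gated macrophages, whose median depths were 4468 and 6521 UMIs, and 494 and 118 of the fibroblast gate, whose medians were 4821 and 8984 UMIs. Over all kept barcodes, Cd209f was at 16.6 CPM in WT against 1.17 CPM in the knockout, and Cd163 at 30.0 and 3.16 CPM. Members held 52.6% of all Cd163 UMIs in WT and 28.1% in the knockout. Lyve1 was at 29.6 and 5.75 CPM over all kept barcodes, and only 17.8% of its knockout UMIs lay in members. Lymphatic endothelial barcodes, of which 10 WT and 5 knockout passed a gate, had Lyve1 at 3122 and 1615 CPM.

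Set against the other gated macrophages of the same library, members had many genes at higher levels. Of 5313 genes measured at 20 CPM or more, 213 (4.01%) were at least 2-fold higher in members in both libraries and 151 (2.84%) at least 2-fold lower. The members were chosen from the same counts, so these genes describe them and test nothing. Cd209g, a further lectin of the DC-SIGN family, was at 160 CPM in WT members against 2.53 CPM in the other WT macrophages, and at 95.3 against 0.163 CPM in the knockout. The Cd209 genes are close paralogs whose reads the counting may have split, so their single levels are uncertain. Thinning moved the log2 ratio of Cd209g from 5.96 to 5.29 in WT and from 8.79 to 7.40 in the knockout. Clec10a, a lectin that binds galactose, was at 636 against 70.9 CPM in WT and 549 against 38 CPM in the knockout. C4b, complement component 4, was at 565 against 63.7 CPM and at 450 against 20.7 CPM. These genes were higher in members of both libraries, and the fold was larger in the knockout for each of the 3.

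The other genes named by this ranking had mixed roles. Ltc4s, the enzyme that makes leukotriene C4, was at 841 against 98.1 CPM in WT and 1049 against 51.9 CPM in the knockout. Pla2g2d, a secreted phospholipase A2, was at 36.6 against 1.79 CPM and at 34.3 against 0.922 CPM. Ednrb, the endothelin B receptor, was at 489 against 34.7 CPM and at 263 against 9.0 CPM. Tslp, a cytokine better known from epithelia, was at 166 against 21.8 CPM and at 134 against 7.05 CPM. Fxyd2, a regulator of the sodium pump, was at 660 against 97.5 CPM and at 404 against 42 CPM. Chp2, Ms4a8a, Plekhg5 and Calml4 completed the ranking, with ratios of 7.34 to 8.23 in WT and 13.1 to 26.1 in the knockout. With cells thinned to 2000 UMIs, the log2 ratio of Pla2g2d in WT was 3.25 in place of 4.32, and that of Tslp in the knockout 3.61 in place of 4.23.

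Chemokines divided between the classes. Ccl8, which attracts monocytes and other leukocytes, was at 4586 CPM in WT members and between 404 and 1864 CPM in the other classes. In the knockout it was at 4145 CPM in members and between 347 and 1184 CPM elsewhere. Ccl24, a chemokine for eosinophils, was at 294 CPM in WT members against 36.6 CPM in the other macrophages, and at 175 against 8.57 CPM in the knockout. In all, 5 of 13 chemokines were at least 2-fold higher in members of both libraries (Ccl6, Ccl8, Ccl9, Ccl12 and Ccl24) and 3 were lower (Ccl5, Cxcl1 and Cxcl16).

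Of 13 scavenger receptors and lectins measured, 7 were at least 2-fold higher in both libraries and 1 was lower. Mrc1 was at 1217 CPM in WT members, against 182 to 455 CPM in the other classes. Folr2, a folate receptor found on resident macrophages, was at 1286 CPM in WT members against 303 CPM in the other gated macrophages, and at 1598 against 203 CPM in the knockout. The receptor Timd4, which binds phosphatidylserine on dying cells, was at 37.7 CPM in WT members and 11.4 CPM in knockout members, and at 0.595 and 0.217 CPM in the others. Of 12 complement and dead cell uptake genes, 6 were higher, among them C5ar1, Cfp, C4b, Gas6 and Pros1, and 3 lower (Axl, Mfge8 and Itgb5). Gas6, a ligand that bridges dying cells to phagocytes, was at 830 against 164 CPM in WT and at 511 against 96.2 CPM in the knockout.

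**Figure D2:**
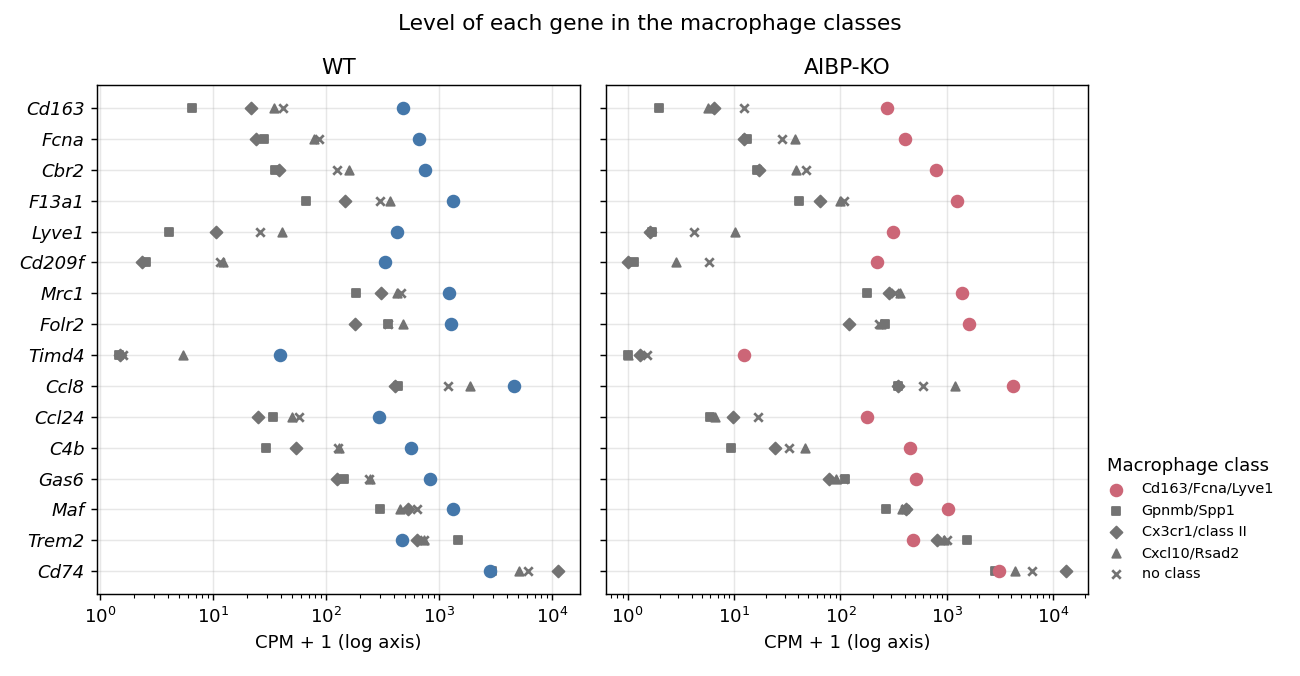
Levels of 16 genes (CPM + 1, log axis) in the 5 groups of gated macrophages, WT on the left and AIBP-KO on the right; coloured circles are the members. The members lie to the right for Mrc1, Folr2, Ccl8, C4b and Gas6 in both libraries, and lowest or near the lowest for Trem2 and Cd74; the first 6 genes were used by the rule.

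Some genes of antigen presentation and of the lipid-associated list were lower in members. Of 7 class II presentation genes measured outside the rule, none was 2-fold higher in both libraries and 4 were lower (Cd74, H2-Ab1, H2-DMb1 and Ctss). Cd74, the invariant chain of class II molecules, was at 2847 CPM in WT members against 6302 CPM in the others, and at 3054 against 7306 CPM in the knockout. This low level was not confined to members, since the Gpnmb/Spp1 cells had 2925 (WT) and 2797 CPM (knockout). The Cx3cr1/class II cells had the most, 11280 and 13210 CPM. The rule kept out cells with as many or more genes of a set that holds H2-Aa and H2-Eb1. Nothing is therefore read from the lower class II genes of members. Of 17 lysosome and lipid-associated genes, 6 were lower in members, among them Trem2, Cd9, Lgals3, Lpl and Fabp4, and none was higher. The rule likewise kept out cells with as many or more genes of the set led by Gpnmb and Spp1. Nothing is therefore read from the lower genes of this list either. Trem2, a lipid-sensing receptor, was at 469 against 1018 CPM in WT and 481 against 1144 CPM in the knockout. The Cx3cr1/class II cells were nearer to members in Trem2, with 633 (WT) and 814 CPM (knockout). The ranking of lower genes also named Npy, Cd72, Lpcat2, Cd300c2, Tgfbr1, Slc6a8, Itgb5, Cxcl16, Rgs2 and Gpr65. Cd72, an inhibitory receptor, was at 14.3 against 143 CPM in WT and 26.7 against 213 CPM in the knockout, where thinning moved its log2 ratio from -2.99 to -1.29.

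Among transcription factors, 3 of 16 were at least 2-fold higher in members of both libraries and 1 was lower. Maf, a factor of resident macrophage identity, was at 1315 against 457 CPM in WT and at 1022 against 354 CPM in the knockout. Klf2 was at 301 against 70.0 CPM and at 511 against 66.4 CPM, and Klf4 at 139 against 60.6 CPM and at 191 against 40.8 CPM. Both are zinc finger factors that restrain inflammatory gene expression. Nr1h3, which encodes LXR alpha, was at 15.5 against 43.5 CPM and at 15.3 against 46.9 CPM. Of 22 interferon-induced genes, 3 were higher (Ifitm3, Ifi27l2a and Ly6e) and none lower. In WT, the Cxcl10/Rsad2 cells had more Ifitm3 and Ly6e than members, at 4338 against 3574 CPM and 1516 against 1486 CPM. In the knockout they had less, at 3307 against 5155 CPM and 1125 against 1476 CPM. Over all 5313 genes the median log2 ratio of members to others was 0.115 in WT and 0.158 in the knockout. Centred on that median, 169 genes were higher and 183 lower, so that higher genes made up 48.0% of those called in place of 58.5%.

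**Figure D3:**
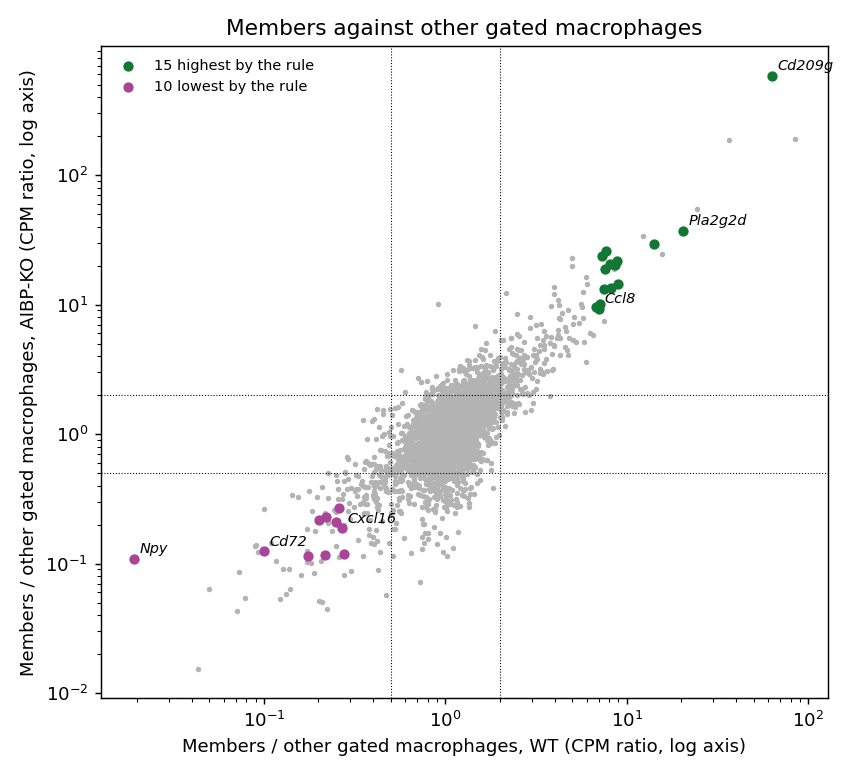
Ratio of CPM in members to CPM in the other gated macrophages, in WT (x axis) and AIBP-KO (y axis), both log axes; each point is a gene, and dotted lines mark 2-fold. Cd209g and Npy lie at the ends of the genes named by the ranking, which fall on the same side of 1 in both libraries.

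Within the members, the targeted gene behaved as the genotype labels say. Naxe had 115 UMIs in WT members, or 43.4 CPM (35.8 to 52.1), in 102 of 595 cells. It had 0 UMIs in the 43 knockout members, which at 3 counts allows a share of cells with a UMI of up to 6.98%. Taking 3 counts over the knockout members (11.4 CPM) as the limit that a count of 0 allows, Naxe was at least 3.79-fold lower. Naxd, the dehydratase of the same repair pathway, was at 53.2 CPM in WT members and 45.8 CPM in knockout members, with a ratio of 0.860 (0.434 to 1.55).

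Of 6100 genes at 20 CPM or more in members of either library, 837 (13.7%) were at least 1.5-fold higher in the knockout and 1219 (20%) at least 1.5-fold lower. Many of these lay within counting error of the 43 knockout cells. Requiring also that the counting interval of the ratio leave out 1 left 339 genes (5.56%) higher and 403 (6.61%) lower. These shares are the background for each list below. The median log2 ratio of the tested genes was -0.05.

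Monocyte-attracting chemokines led the genotype ranking, which orders genes by the interval bound nearest 1. Pwp2, Rfesd, Phf11a, Arg1, Nufip1 and Saa3 had ratios above that of Ccl12 but rest on fewer UMIs. Ccl7 was at 130 CPM in WT members and 1064 CPM in knockout members, a ratio of 8.15 (6.94 to 9.57). Ccl2 was at 156 and 950 CPM, a ratio of 6.09 (5.19 to 7.15), and Ccl12 at 222 and 816 CPM, a ratio of 3.68 (3.13 to 4.31). All 3 encode ligands of the receptor CCR2 and lie among closely related chemokine genes. In the other gated macrophages the knockout was also higher, with ratios of 2.45, 2.27 and 2.50. The share of members with a UMI was 19.8% in WT and 55.8% in the knockout for Ccl7, 18.8% and 51.2% for Ccl2, and 25% and 58.1% for Ccl12. All 3 were found together in 33 of 595 WT members (5.55%, 3.85 to 7.70%) and in 13 of 43 knockout members (30.2%, 17.2 to 46.1%), against 2.91% and 5.94% of the other gated macrophages. These shares are not thinned, and knockout members were the deeper cells.

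A few cells carried much of this RNA. In the knockout, 3 of 43 members held 47.0% of Ccl7, 47.8% of Ccl2 and 53.7% of Ccl12 UMIs. Averaging over cells in place of summing gave log2 ratios of 2.92 for Ccl7, 2.55 for Ccl2 and 1.86 for Ccl12, against 3.02, 2.61 and 1.88 from the sums. Without the cells that held at least 3 genes of another cell type list, the log2 ratios of Ccl7 and Ccl2 were 2.22 and 1.55.

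Of 13 chemokines tested, 7 were at least 1.5-fold higher in the knockout and 3 lower. Besides these 3, Cxcl2 was at 130 and 309 CPM, Ccl4 at 70.6 and 160 CPM, Ccl3 at 40.7 and 95.3 CPM, and Ccl5 at 13.6 and 26.7 CPM. Ccl5 rested on 7 knockout UMIs in 2 cells, and its interval of 0.738 to 4.48 included 1. Lower were Ccl24, Cxcl16 and Cxcl14. The interval of Cxcl16, 0.38 to 1.02, included 1. Cxcl14 was at 23.8 CPM in WT members and 0 CPM in knockout members, and was lower in the knockout in each other class too. Ccl24 was at 294 and 175 CPM, a ratio of 0.596 (0.433 to 0.803), while Ccl8, the chemokine of the list with the most UMIs, had a ratio of 0.904 (0.849 to 0.962). The list's median log2 ratio at 5 CPM or more was 0.69, against -0.12 over all genes at that level. It was 0.19 with cells thinned to 2000 UMIs and 0.22 with at least 4 set A genes required.

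**Figure D4:**
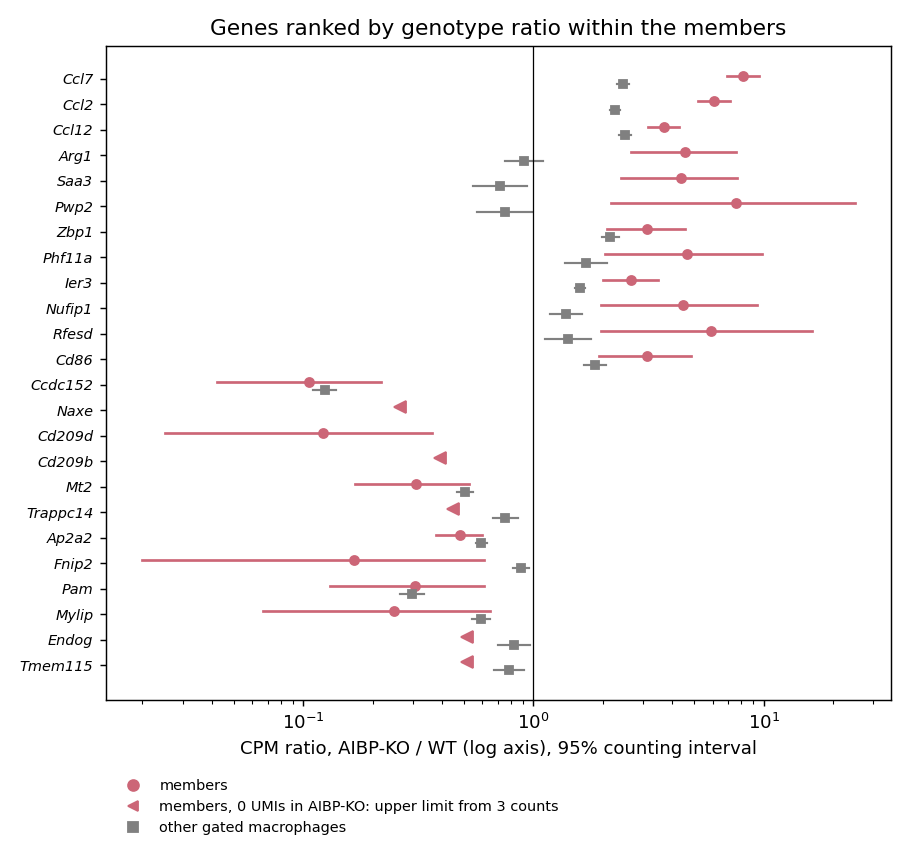
Ratio of CPM, AIBP-KO over WT (log axis), for the 12 highest and 12 lowest genes of the ranking; red circles are members and grey squares the other gated macrophages, with exact 95% counting intervals, and triangles mark upper limits where knockout members had 0 UMIs. Ccl7, Ccl2 and Ccl12 lie right of 1 in both populations, whereas Arg1, Saa3 and Pwp2 do so in members alone; that difference was not tested.

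Part of the interferon-induced list was higher in knockout members. Of 24 tested, 11 were at least 1.5-fold higher (8 with an interval that left out 1), 12 were within 1.5-fold and 1 was lower, and the median log2 ratio at 5 CPM or more was 0.51. Zbp1, a sensor of left-handed nucleic acid, was at 45.3 CPM in WT members and 141 CPM in knockout members, a ratio of 3.12 (2.1 to 4.54). Rtp4 was at 78.1 and 187 CPM, and Bst2, which tethers virus particles to the membrane, at 510 and 995 CPM. Isg15, a ubiquitin-like protein, was at 54.0 and 107 CPM, a ratio of 1.98 (1.27 to 2.98), and had a UMI in 15.8% of WT and 37.2% of knockout members. Stat2, a transcription factor of the interferon response, was the single member of the list on the lower side, at 47.2 and 19.1 CPM from 5 knockout UMIs. In the other gated macrophages the ratios were 3.12 for Isg15, 2.16 for Zbp1 and 2.95 for Rtp4, so this difference was not confined to members. The 6 interferon genes of set D were used by the rule.

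Single genes of other lists were also called higher. Cd86, a costimulatory receptor, was at 33.2 CPM in WT members and 103 CPM in knockout members, a ratio of 3.10 (1.94 to 4.82), and was found in 13.9% and 39.5% of cells, unthinned. With cells thinned to 2000 UMIs its log2 ratio was 0.89 in place of 1.62. In the other gated macrophages the ratio of Cd86 was 1.85. Cd14, the co-receptor for bacterial lipopolysaccharide, was at 186 and 316 CPM, and was higher in the knockout in each other class too. Klf2 was at 301 and 511 CPM, a ratio of 1.70 (1.40 to 2.04), against 0.950 in the other gated macrophages. Plac8, a gene of recently arrived monocytes, was at 204 and 358 CPM, but the median log2 ratio of its list, the monocyte genes, was -0.21, and 0.91 without cells holding at least 3 genes of another cell type list. Ier3, an immediate early gene, was at 99.2 and 263 CPM, and 3 knockout cells held 62.3% of its UMIs. Its log2 ratio was 0.74 in place of 1.40 where at least 4 set A genes were required. In the other gated macrophages the ratio of Ier3 was 1.59. Of 16 immediate early and heat shock genes, 5 were higher and none lower. Their list's median log2 ratio of 0.35 was 0.03 with cells thinned to 2000 UMIs and 0.02 with at least 4 set A genes. For 2 of them, Hspa1a and Hspa1b, 3 knockout cells held 88.9% and 92.3% of the UMIs.

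The ranking also named Arg1, arginase 1, at 19.2 and 87.7 CPM, and Saa3, an acute phase protein, at 16.6 and 72.4 CPM. In the knockout 91.3% of Arg1 and 94.7% of Saa3 UMIs came from 3 cells, and only 11.6% and 9.30% of members had a UMI. Pwp2, Phf11a, Nufip1 and Rfesd were named with 6 to 11 knockout UMIs each. The levels of these low genes are correspondingly uncertain. The ratio of Rfesd, for example, was 5.90 with an interval of 1.97 to 16.2, and its log2 ratio of 2.47 was 1.59 with thinned cells.

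Of 17 lectins and scavenger receptors tested, 8 were at least 1.5-fold lower and 4 higher, with a median log2 ratio of -0.45. Averaging over cells in place of summing gave a median of -0.12, against -0.14 over all genes. Cd209d was at 93.6 CPM in WT members and 11.4 CPM in knockout members, a ratio of 0.122 (0.0250 to 0.362). Cd209b was at 29.1 CPM in WT and had 0 UMIs in the knockout, at least 2.54-fold lower. Stab1, a receptor that clears matrix fragments and modified lipoproteins, was at 889 and 553 CPM, a ratio of 0.622 (0.522 to 0.736). It was also lower in knockout gated macrophages outside the classes, at 499 and 320 CPM, but not in the Cxcl10/Rsad2 cells, at 291 and 314 CPM. Mgl2, a galactose-type lectin, was at 264 and 149 CPM, and was lower in the knockout in each other class as well. Timd4, found in 70 WT and 2 knockout members, had a ratio of 0.303 (0.0615 to 0.912). Its knockout level was the 11.4 CPM that 3 counts give. The list did not move as 1 block: Folr2 was at 1286 and 1598 CPM, a ratio of 1.24 (1.12 to 1.38), and Mrc1 had a ratio of 1.15 (1.03 to 1.28). Msr1, Colec12, Clec4n and Clec7a were the 4 on the higher side. Summed over the list, the level was 5283 CPM in WT members and 5117 CPM in knockout members.

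Some genes for the clearance of dying cells and a growth factor were lower as well. Of 12 complement and uptake genes, 4 were at least 1.5-fold lower (Axl, Gas6, Pros1 and Mfge8) and 1 higher (Mertk). Only 2 of the lower genes, and not Mertk, had an interval that left out 1. Axl and Mfge8 were at only 15.3 and 11.4 CPM in knockout members. Gas6 was at 830 CPM in WT members and 511 CPM in knockout members, a ratio of 0.616 (0.513 to 0.733), and Pros1, which encodes protein S, at 134 and 68.6 CPM. The ratio of Gas6 was 0.586 in the other gated macrophages, and Pros1 was lower in the knockout in each other class. Igf1, a growth factor for muscle and its progenitors, was at 379 and 217 CPM, a ratio of 0.573 (0.431 to 0.748), against 0.924 in the others. It had a UMI in 70.1% of WT and 53.5% of knockout members. Of 9 secreted growth and trophic factors tested, Igf1 was the 1 lower and Osm the 1 higher. Retnla, a protein of alternative activation, was at 1770 and 1174 CPM, a ratio of 0.663 (0.589 to 0.745), and 3 knockout members held 60.7% of its UMIs there. In the other gated macrophages its ratio was 0.118, and members were the class with the highest Retnla level in both libraries.

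Genes of LXR signalling and cholesterol efflux were on the lower side or within 1.5-fold. Of 10 tested, 4 were at least 1.5-fold lower (Nr1h2, Mylip, Scd2 and Soat1) and none higher, with a median log2 ratio of -0.44 at 5 CPM or more. Mylip, an LXR target that marks the LDL receptor for degradation, was at 61.5 CPM in WT members and 15.3 CPM in knockout members, a ratio of 0.248 (0.0668 to 0.647) from 4 knockout UMIs. In the other gated macrophages the ratio of Mylip was 0.593 (0.540 to 0.650). Scd2 was at 33.6 and 7.63 CPM, the latter below the level of 3 counts. Soat1, which esterifies cholesterol, was at 167 and 103 CPM, a ratio of 0.617 (0.402 to 0.911). Pltp, a phospholipid transfer protein and the list gene with the most UMIs, had a ratio of 0.734 (0.665 to 0.809). Scd2, Soat1 and Pltp were also lower in the knockout in each other macrophage class, so these differences were not confined to members. Nr1h2, LXR beta, had a ratio of 0.516 with an interval of 0.204 to 1.09 that included 1. Of 3 cholesterol synthesis and uptake genes tested, Msmo1 was higher and Hmgcs1 and Insig1 were lower, and no interval left out 1.

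The remaining low genes named by the ranking had other roles. Ccdc152 was at 253 CPM in WT members and 26.7 CPM in knockout members, a ratio of 0.105 (0.0422 to 0.219), and at a ratio of 0.124 in the other macrophages. In the GENCODE M21 annotation its gene overlaps that of Selenop on the opposite strand by 439 bases, so reads of the pair may not be separable. Selenop, a selenium transport protein, was at 6207 and 4389 CPM. Mt2, a metallothionein, was at 172 and 53.4 CPM, and Ap2a2, a subunit of the endocytic adaptor AP-2, at 645 and 309 CPM. Their ratios in the other gated macrophages were 0.505 and 0.595. Fnip2 had a ratio of 0.166 (0.0198 to 0.612), and Pam, an enzyme that amidates peptides, 0.306 (0.131 to 0.612). In the other gated macrophages these 2 ratios were 0.883 and 0.297. Without cells holding at least 3 genes of another cell type list the log2 ratio of Pam was -0.70 in place of -1.70. With thinned cells that of Mt2 was -0.92 in place of -1.69, and that of Fnip2 -1.05 in place of -2.54. Trappc14, Endog and Tmem115 had 0 UMIs in knockout members and were at 22.3 to 25.7 CPM in WT, at least 1.95-fold to 2.24-fold lower.

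Calls in the other lists are to be read beside the background of 13.7% higher and 20% lower over all tested genes. Class II presentation had 1 of 7 genes higher (Cd86) and 1 lower (Ciita), and its sum was 5411 CPM in WT members and 5647 CPM in knockout members. Iron and haem handling had none of 12 higher and 2 lower (Tfrc and Ireb2). The tricarboxylic acid cycle had 1 of 14 in each direction, and the lysosome and lipid-associated list 2 of 17 higher and 1 lower. In the lower case, Ctsk, a collagen-degrading cathepsin, was at 24.9 CPM in WT and had 0 UMIs in the knockout. Of the 13 mitochondrially encoded genes 3 (23.1%) were higher (mt-Nd4l, mt-Co2 and mt-Atp6) and 1 (7.69%) lower (mt-Nd6). The ratio of mt-Co2 was 2.06 in members and 2.18 in the other gated macrophages. Median mitochondrial shares of UMIs were 1.76% in WT and 2.21% in knockout members. The 5 lists not described gene by gene were alternative activation (1 of 4 higher, 2 lower), transcription factors (3 of 14 higher, 2 lower), inflammatory cytokines (1 of 5 higher, none lower), monocyte genes (2 of 6 higher, 1 lower) and interferon gamma GTPases (2 of 7 higher, 1 lower). As shares, higher and lower, these were 25% and 50%, 21.4% and 14.3%, 20% and 0%, 33.3% and 16.7%, and 28.6% and 14.3%. With lists this short, 1 gene moves a share widely.

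**Figure D5:**
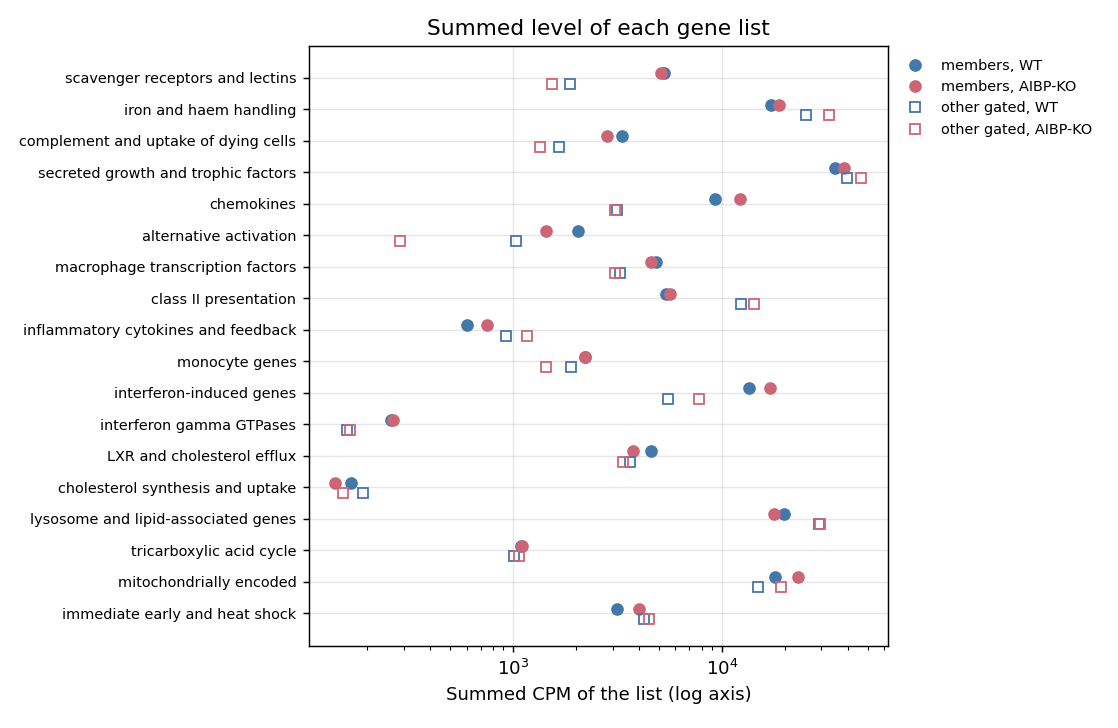
Summed level (CPM, log axis) of each gene list in members (filled circles) and the other gated macrophages (open squares) of both libraries. The sums of scavenger receptors, chemokines and interferon-induced genes are higher in members than in the others in both libraries. Most of the interferon sum in members is Ifi27l2a, Ifitm3 and Ly6e, the only 3 of 22 such genes called higher. The sum of class II presentation is lower, at 5411 and 5647 CPM in members.

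The members were not uniform. In WT, 379 of 595 members had an H2-Ab1 UMI, and the class II list summed to 7295 CPM in them against 1607 CPM in the 216 without, a split that uses 1 gene of the list itself. Ccr2, the chemokine receptor of recruited monocytes, had a UMI in 95 WT members (16.0%) and 10 knockout members (23.3%). The WT members with Ccr2 had class II genes at 9919 CPM, against 4264 CPM in those without. They had Cd163 at 312 against 523 CPM and Timd4 at 9.30 against 45.0 CPM. Their median depth was 5503 against 3254 UMIs, so detection of Ccr2 moved with depth.

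Timd4 split the members in another way. It was found in 70 WT members (11.8%, 9.29 to 14.6%) and 2 knockout members (4.65%, 0.568 to 15.8%), and these shares cannot be set apart at this depth. In the WT members with Timd4, Cd163 was at 1088 CPM against 410 CPM in those without, Lyve1 at 794 against 378 CPM, and Cd209f at 1571 against 190 CPM. Class II genes summed to 5540 and 5396 CPM, and Ccr2 was at 72.6 and 79.2 CPM. Cd163, Lyve1 and Cd209f are genes of the rule. Retnla was found in 37.7% of WT and 39.5% of knockout members, and its level in single cells reached 276 UMIs in WT and 84 in the knockout. Retnla was at 4128 CPM in the 168 WT members with a Cd209f UMI and at 974 CPM in the 427 without. These are groups of cells within 1 library, described without a test.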

How the data were processed

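The deposited values are UMI counts of 32574 genes in each barcode, without any normalization, for 1 library per genotype. The muscle was digested with collagenase D and strained, per the labels' protocols. The counting program was Cell Ranger. Its version is 2.1.1 per the submitters' processing notes but 5.0.0 per the file headers, and this could not be settled. For the genome build, annotation and strand setting, the sources used here give nothing. GENCODE M21 served only to find overlapping genes.

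The gene minimum of 200 removed 49 WT and 31 knockout barcodes, and the mitochondrial maximum of 10% another 149 and 197. No doublet caller was run. The rule excludes cells with Pdgfra or Cdh5, and alternatives left out cells with at least 3 genes of another cell type list or the 5% of gated macrophages with the most UMIs. Counts were summed per library and population and given as CPM with exact Poisson intervals. Intervals for ratios of CPM and of shares are conditional exact ones, those for shares of cells are Clopper-Pearson, and the level is 95% throughout. UMIs from 1 cell are not independent of each other, so the intervals are too narrow as a measure of biological spread. A gene was tested for genotype at 20 CPM or more in either library and called at 1.5-fold. Against the other gated macrophages it was called at 2-fold in both libraries. Log2 ratios of genes at 0 used a prior of 0.5 counts. A count of 0 was given a limit of 3 counts over the population.

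Genes were named by ranking on the bound of the ratio interval nearest 1 (12 highest and 12 lowest) and, against the other macrophages, on the library ratio nearest 1 (15 highest and 10 lowest). Ribosomal, mitochondrially encoded, haemoglobin, sex-linked, clone-named and rule genes, and genes at 10 times the members' CPM or more in another gated cell type, were left out of the rankings (14 highest and 61 lowest for genotype by this last condition, 1 and 37 against other macrophages). Genes of the rule, called genes of 19 fixed lists, the list gene with the most UMIs, Naxe and Naxd could also be named. Folr2 and Mrc1 in the genotype comparison, Klf4 and the marker genes used to split the members were named after their values were seen. The members and lists were chosen with earlier results of these data known. The calculation was tested on simulated data. Python 3.11.15 with numpy 2.4.6, pandas 2.3.3, scipy 1.17.1 and matplotlib 3.10.9 was used. Results for some genes are not reported here.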

Additional observations from a re-analysis of the deposited data

Results flagged for a closer look

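Of 95 named or listed genes examined, 7 had a knockout over WT ratio at least 1.5-fold to one side in members and a ratio on the opposite side of 1 in the other gated macrophages, with both counting intervals leaving out 1. Higher in knockout members were Pwp2 (7.58, against 0.751 in the others), Saa3 (4.36 against 0.718), Hspa1b (2.39 against 0.630), Bhlhe40 (2.35 against 0.841) and Hspa1a (2.31 against 0.880). Lower were Stat2 (0.404 against 1.41) and Ctsk (0 against 1.23, from 0 knockout UMIs). These differences between the populations were not tested. Most of the knockout UMIs of Saa3, Hspa1a and Hspa1b came from 3 cells.

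Among the 198 WT barcodes removed by the gene and mitochondrial limits, 8 met the rest of the rule, and among the 228 removed knockout barcodes 1 did. These cells enter no comparison.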

How the results depend on the processing

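The ratio of the members' share of gated macrophages, 0.121, ranged from 0.0930 (without Cbr2 in set A) to 0.135 (cells thinned to 2000 UMIs), and that of kept barcodes, 0.109, from 0.0839 to 0.115, over the alternatives for depth, set A, C1q, mitochondrial and gene limits, cycling cells and doublets. Each of these lay inside the interval of the reported ratio. Without the condition that set A be above the other sets, the ratios were 0.197 and 0.177, outside it. The counts of genes depended on the limits. In place of 837 higher and 1219 lower, a limit of 50 CPM gave 362 and 417, and no filter 2299 and 6639. Requiring the interval to leave out 1 gave 339 and 403. This setting, the one without the condition on the other sets and list medians at 20 CPM or more in place of 5 were chosen after seeing the data. Against the other gated macrophages, a limit of 50 CPM gave 90 genes lower in place of 151. The number of genes tested differed with each of these limits on level. No share, gene count or single gene ratio changed direction, except that centring turned the balance of genes against the other macrophages from 213 higher and 151 lower to 169 and 183. Of 19 list medians 7, all within 0.21 of 0 on the log2 scale as reported, changed sign under at least 1 alternative, among them the monocyte genes (-0.21 to 0.91) and inflammatory cytokines (0.19 to -0.32). Of 216 values for single genes under the genotype alternatives, 11 moved beyond their interval, and of 300 against the other macrophages 46 did, without a change of side. Of 199 values of list medians 4 moved in this way. With 43 knockout members, 3 UMIs correspond to 11.4 CPM, and a gene near that level in WT could not be shown to differ at this depth. No paired analysis was possible because each genotype has 1 library and the labels give no replicate numbers.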
